A study of Homo sapiens with 20 samples.

Results

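Hormone-deprived SUM44 cells given ethanol vehicle for 3 h were compared with cells of the same deprivation harvested at 0 h, before any addition. The comparison used the 4 arrays titled vehicle at 3 h (replicates A to D) and the 4 arrays titled 0 h (A to D), which are 8 of the 20 arrays in the series. SUM44 is an established human breast cancer cell line from an invasive lobular carcinoma, a luminal tumour type that expresses the estrogen receptor. It was bought from a commercial supplier according to the labels. Before harvest, cells of every group had spent 3 days in IMEM medium with charcoal-stripped serum, which carries little steroid hormone. The serum concentration reads 10% in the sample text and 2% in the series text. Vehicle cells then received ethanol at 0.01% and no estradiol. Vehicle at 24 h and 1 nM estradiol (E2) at 3 h and 24 h, 4 arrays each, made up the other groups. Their arrays enter the fit that estimates the spread of each gene and the choice of its probe set, and their levels are set beside those of the comparison. Groups were taken from the titles, and the treatment field of the E2 samples at 24 h reads as baseline. The series text describes the replicates as biological quadruplicates.

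Vehicle arms are the usual controls of hormone experiments, and cells in them still meet a pipette, a solvent, a change of temperature and often new medium. New medium brings serum factors, cystine and other amino acids, and light or air exposed medium is known to hold ligands of the aryl hydrocarbon receptor. Serum and growth factors are known to start brief waves of transcription through serum response factor and MAP kinases, and the sterol and redox sensors of the cell respond to lipid and cystine supply. The labels do not say whether medium was renewed when vehicle was added. Ethanol, handling, any medium change and the 3 further hours of deprivation cannot be told apart in this comparison.

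The 2 groups separated clearly but by small amounts. Of 11963 genes tested with limma, 2393 differed at an adjusted p below 0.05 (called from here on), which is 20% of genes. Vehicle was higher for 1190 of them, 9.95% of all genes, and lower for 1203, 10.1% of all genes. The median size of a called difference was 0.20 on the log2 scale, and 122 genes (1.02%) were called with at least a 1.5-fold difference, 97 higher and 25 lower. The median difference over all genes was -0.02. Values are the deposited log2 expression levels, so a difference of 1 is 2-fold. For 3035 genes (25.4%) the 4 vehicle arrays all lay on one side of the 4 baseline arrays, 1444 above and 1591 below.

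**Figure D1:**
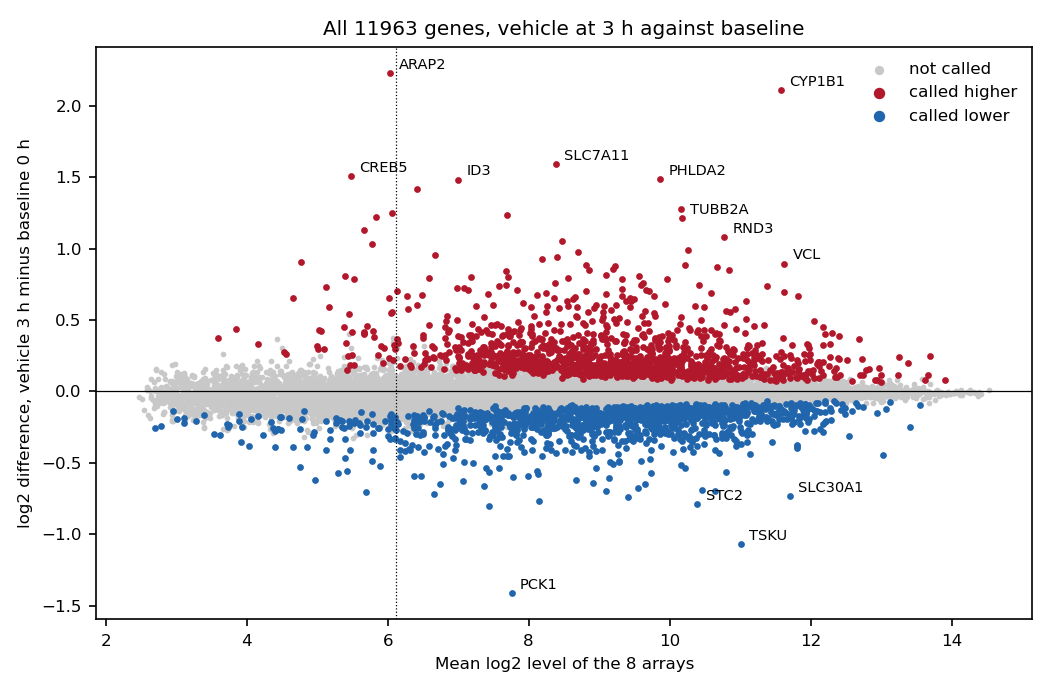
Difference in log2 level (vehicle at 3 h minus baseline at 0 h, vertical axis) against the mean log2 level of the 8 arrays (horizontal axis) for each of 11963 genes. Red points were called higher in vehicle, blue points lower, grey points were not called, and the dotted line marks the level of 6.11 taken as dim. The 97 genes higher by at least 1.5-fold outnumber the 25 lower, and ARAP2 and CYP1B1 stand above a difference of 2.

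Array pairs correlated at 0.998 to 0.999 within the 2 groups and at 0.997 to 0.998 between them, and no pair was identical. The first principal component of the 8 arrays held 54.5% of their variance. The contrast of the 3' and 5' control probe sets, a measure of RNA integrity, was -0.12 ± 0.01 in vehicle and -0.12 ± 0.01 at baseline for GAPDH (SD, n = 4 each). For ACTB it was 0.31 ± 0.03 in vehicle and 0.47 ± 0.01 at baseline, without overlap. ACTB itself was higher in vehicle on all 3 of its control probe sets, by 0.23 at the 3' end, 0.35 in the middle and 0.38 at the 5' end. The part of RNA integrity in the results below was not tested. Luminal markers were high, with ESR1 at a mean log2 level of 13.29 in vehicle and 13.54 at baseline. Of 13 immune and endothelial markers, 10 in vehicle and 9 at baseline lay below the log2 level of 6.11, under which the dimmest 25% of genes lie (called dim from here on). Of 13 stromal markers 9 were dim in each group. In bulk RNA, fewer cells of a kind and less of a transcript per cell cannot be told apart.

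CYP1B1 had the smallest p of all genes and led the genes of the aryl hydrocarbon receptor, a ligand-activated transcription factor that senses planar aromatic compounds. CYP1B1, a cytochrome P450 that oxidises estradiol and polycyclic hydrocarbons, had log2 levels of 12.66, 12.72, 12.54 and 12.62 in vehicle at 3 h, against 10.45, 10.50, 10.60 and 10.57 at baseline. The groups did not overlap, and the SD was 0.07 in each. The difference was 2.11 ± 0.04 (SE of the limma fit), which is 4.31-fold, with a Benjamini-Hochberg adjusted p of 1.1e-17, and all 4 probe sets of the gene were called higher.

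Other members moved less. TIPARP, a mono-ADP-ribosyltransferase that is induced by the receptor and represses it, had 9.17, 9.42, 9.14 and 9.30 in vehicle, against 8.59, 8.79, 8.71 and 8.53 at baseline. All vehicle arrays were above all baseline arrays, by 0.61 ± 0.06 (limma adjusted p = 5.9e-07). AHR, the receptor itself, was higher by 0.72 ± 0.07, and the scaffold protein gene NEDD9 by 0.85 ± 0.06. FOSL2, a partner of JUN that is also on the immediate-early list, fell by 0.60 ± 0.05, and CYP1A2, a related P450, fell by 0.29 ± 0.05. CYP1A1, the best known target of the receptor, had 6.41, 6.23, 6.33 and 6.26 in vehicle, against 6.20, 6.36, 5.90 and 6.32 at baseline, and was not called (limma adjusted p = 0.40). Of 13 measured members of this list 4 were called higher (30.8%) and 2 lower (15.4%), against 9.95% and 10.1% of all genes. The median difference was 0.09, against -0.02 over all genes.

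The receptor binds a core motif of GCGTG, and the window before the start of TIPARP is shown because it holds this core. RefSeq promoter windows (GRCh38.p14) were searched on both strands over the 250 bases before each start. The TIPARP window below lies at chr3:156674340-156674589 on the plus strand and is 1 of 3 listed for the gene and the only one of them with the core. Capitals mark the 2 matches, both on the opposite strand and beginning 208 and 142 bases before the start.
TIPARP: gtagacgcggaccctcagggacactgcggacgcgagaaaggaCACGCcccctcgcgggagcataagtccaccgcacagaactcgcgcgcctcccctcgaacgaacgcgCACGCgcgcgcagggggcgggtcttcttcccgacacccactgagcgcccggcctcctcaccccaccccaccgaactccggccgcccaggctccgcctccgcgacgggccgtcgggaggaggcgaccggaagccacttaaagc
Of the 13 members, 10 had a window and 4 of those held the core in at least 1 window, as do 36.2% of all genes with a window (32.2% of all 35116 windows). No core was found in the windows of AHR or NEDD9, and CYP1B1 had no window to search. Among the members called higher 3 had a window and 1 of those held the core.

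Some redox genes rose, and most of those measured were not called. SLC7A11, the cystine transporter that feeds glutathione synthesis, had 8.96, 9.34, 9.11 and 9.32 in vehicle, against 7.61, 7.56, 7.69 and 7.49 at baseline. These groups lay more than a log2 unit apart at their closest arrays, and the difference was 1.59 ± 0.09, or 3.02-fold (limma adjusted p = 6.2e-10). TXNRD1, which encodes thioredoxin reductase, had 11.91, 11.97, 11.93 and 12.06 in vehicle, against 11.23, 11.27, 11.27 and 11.29 at baseline. It was higher by 0.70 ± 0.03 in a very tight set of arrays. HMOX1, the heme oxygenase gene, had 9.69, 9.66, 9.61 and 9.64 in vehicle, against 9.02, 8.98, 8.87 and 9.05 at baseline, a difference of 0.67 ± 0.05. The conjugate exporter ABCC2 was higher by 0.48 ± 0.06 and GCLC, the catalytic subunit of the first step of glutathione synthesis, by 0.23 ± 0.03. OSGIN1, an oxidative stress-induced growth inhibitor, fell by 0.22 ± 0.06, but its limma adjusted p was 0.055 without baseline array B and 0.052 without baseline array C. The list holds targets of NRF2, the transcription factor of the antioxidant response, with its own gene NFE2L2 and KEAP1. In all, 9 of its 26 measured members were called higher (34.6%) and 1 lower (3.85%), against 9.95% and 10.1% of all genes. The other 16 were not called, and the median was 0.02.

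The antioxidant response element has the core TGACNNNGC. It was present before the start of TXNRD1 in both windows listed, and the first, at chr12:104215529-104215778 on the plus strand, is shown because this gene had the smallest p of the list. Capitals mark the match, 99 bases before the start.
TXNRD1: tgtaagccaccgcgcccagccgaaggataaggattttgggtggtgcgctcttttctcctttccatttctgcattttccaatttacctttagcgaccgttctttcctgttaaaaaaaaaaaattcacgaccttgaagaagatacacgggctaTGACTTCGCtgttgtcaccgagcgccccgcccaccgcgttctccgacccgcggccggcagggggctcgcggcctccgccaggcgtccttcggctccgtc
Of the 20 members of the list that had a window 6 held the core in at least 1 window, against 13.2% of all genes with a window (10.9% of windows). Among the members called higher it was 2 of 6.

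A share of the targets of serum response factor (SRF) and YAP, which include many actin cytoskeleton genes, rose. VCL, which encodes the focal adhesion protein vinculin, had 11.99, 12.17, 12.04 and 12.11 in vehicle, against 11.15, 11.19, 11.20 and 11.17 at baseline, a difference of 0.90 ± 0.05 (limma adjusted p = 1.3e-10). Of its 2 probe sets 1 was called. CCN1, a matricellular protein and target of YAP, was higher by 0.63 ± 0.05, the LIM protein gene FHL2 by 0.47 ± 0.05 and ACTB, beta-actin, by 0.25 ± 0.02. The actin cross-linker ACTN1 rose by 0.26 ± 0.03 and the transcription factor TEAD1 by 0.30 ± 0.08. Of 18 measured SRF and YAP genes, which include SRF, YAP1, WWTR1, TEAD1 and TEAD4, 7 were called higher (38.9%) and 1 lower (5.56%). Over all genes the shares were 9.95% and 10.1%. The 1 lower was the YAP inhibitor AMOTL2, which fell by 0.16 ± 0.05. Without vehicle array D its limma adjusted p was 0.061, and without baseline array C the lower count was 2.

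Among the 15 largest increases but not on that list, TUBB2A, a beta-tubulin, had 10.72, 10.91, 10.64 and 10.84 in vehicle, against 9.45, 9.60, 9.56 and 9.65 at baseline. Its arrays were separated by about a log2 unit at the closest point and differed by 1.21 ± 0.06. RND3, a small GTPase gene, had 11.13, 11.46, 11.24 and 11.42 in vehicle, against 10.23, 10.23, 10.19 and 10.29 at baseline. It was higher by 1.08 ± 0.07. MYO1E, a single-headed myosin of the cell cortex, was higher by 1.24 ± 0.08.

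SRF binds the CArG box, a pair of cytosines and a pair of guanines around A and T bases, which was searched by that definition on both strands. It occurs in 1.16% of all 35116 windows and in at least 1 window of 1.44% of genes. Of the 12 list members that had a window 3 held one (FHL2, ACTN1 and SRF itself), and of the 4 called higher that had a window 2 did. Windows of FHL2 and ACTN1 are shown because these genes were called, each on the minus strand, with the box in capitals. FHL2 lies at chr2:105438514-105438763, 1 of 4 windows of the gene of which 3 hold a box, with the box 101 bases before the start. ACTN1 lies at chr14:68977567-68977816, 1 of 4 windows of which no other holds a box, with the box 171 bases before the start. A match describes the letters and says nothing on binding in these cells.
FHL2: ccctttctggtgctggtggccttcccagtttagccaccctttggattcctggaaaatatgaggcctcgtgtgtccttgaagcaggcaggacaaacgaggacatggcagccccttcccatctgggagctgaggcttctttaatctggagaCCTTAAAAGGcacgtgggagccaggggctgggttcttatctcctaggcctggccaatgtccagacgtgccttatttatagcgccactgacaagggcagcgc
ACTN1: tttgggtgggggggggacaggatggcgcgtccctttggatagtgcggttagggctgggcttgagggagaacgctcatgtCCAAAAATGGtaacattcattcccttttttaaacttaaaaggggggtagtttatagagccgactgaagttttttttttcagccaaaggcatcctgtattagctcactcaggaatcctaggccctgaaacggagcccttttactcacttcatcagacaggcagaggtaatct

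BMP and TGF-beta genes changed at several levels of the pathway, in which ligands activate receptor kinases that phosphorylate SMAD proteins. ID3, an inhibitor of basic helix-loop-helix factors and a direct BMP target, had 7.69, 7.91, 7.77 and 7.61 in vehicle, against 6.30, 6.35, 6.19 and 6.21 at baseline. That is 2.80-fold higher (1.48 ± 0.07 on the log2 scale, limma adjusted p = 3.5e-11). ID1, its relative, had 6.76, 6.82, 6.35 and 6.53 in vehicle, against 6.11, 5.94, 5.95 and 5.78 at baseline, where its mean was dim, and rose by 0.67 ± 0.10. Of the receptors, TGFBR2 was higher by 0.39 ± 0.06, and of the signal carriers SMAD3 by 0.40 ± 0.06. The inhibitors went both ways. SMURF1, a ubiquitin ligase that degrades SMADs, rose by 0.36 ± 0.05 and the SMAD corepressor SKIL by 0.39 ± 0.08, while the decoy receptor BAMBI fell by 0.35 ± 0.07. Of 27 measured members 7 were called higher (25.9%) and 3 lower (11.1%), against 9.95% and 10.1% of all genes, with a median of 0.06. The lower count was 1 without baseline array B or C or without vehicle array D.

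Immediate-early genes, which serum and growth factors induce within an hour in many cells, were split at 3 h. KLF4, a zinc finger transcription factor, had 8.88, 9.11, 8.95 and 9.07 in vehicle, against 7.88, 7.95, 7.95 and 8.01 at baseline, a difference of 1.05 ± 0.05, and both of its probe sets were called higher. TRIB1, a pseudokinase, rose by 0.45 ± 0.06, JUN by 0.30 ± 0.05 and JUND by 0.29 ± 0.04. IER3 had 12.79, 12.79, 12.80 and 12.86 in vehicle, against 13.19, 13.30, 13.31 and 13.22 at baseline, and fell by 0.45 ± 0.03 (limma adjusted p = 2.1e-08). FOSL2 had 7.54, 7.49, 7.51 and 7.39 in vehicle, against 8.08, 8.14, 8.12 and 7.99 at baseline. FOS, dim in both groups, had 5.55, 5.10, 5.21 and 5.19 in vehicle, against 5.67, 5.79, 5.64 and 5.60 at baseline. It fell by 0.41 ± 0.09. The orphan receptor NR4A2 fell by 0.27 ± 0.03. EGR1 (0.13 ± 0.09, limma adjusted p = 0.36) and MYC (-0.25 ± 0.09, limma adjusted p = 0.071) were not called, and their arrays overlapped. MYC was called lower without baseline array A (limma adjusted p = 0.029) or vehicle array B (0.025). Of 30 members 6 were called higher (20%) and 7 lower (23.3%), against 9.95% and 10.1% of all genes, and the median was 0.02.

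The phosphatases and adaptors that restrain MAP kinases were split too. DUSP6, the ERK phosphatase, had 11.14, 11.33, 11.18 and 11.19 in vehicle, against 10.62, 10.63, 10.65 and 10.63 at baseline, and rose by 0.58 ± 0.05. DUSP4 rose by 0.39 ± 0.06. DUSP1, a phosphatase of stress kinases, had 9.17, 9.03, 9.03 and 8.91 in vehicle, against 9.64, 9.54, 9.56 and 9.37 at baseline, and fell by 0.49 ± 0.07. Of 16 members 3 were called higher and 3 lower (18.8% each), against 9.95% and 10.1% of all genes. Among 18 genes of cyclic AMP and CREB signalling 3 were higher (16.7%) and 7 lower (38.9%), with a median of -0.09. Without baseline array C the counts were 1 and 4, and without vehicle array C or D 4 were lower. The member that moved most was CREB5, a transcription factor, with 6.23, 6.44, 6.08 and 6.20 in vehicle, against 4.61, 4.64, 4.70 and 4.95 at baseline. It rose by 1.51 ± 0.10 out of a dim baseline.

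Cholesterol synthesis had the highest share of members called in 1 direction among the 36 gene lists. Lists and members were chosen with earlier results of these data known, so this rank was not tested. The pathway is switched on by the SREBP2 transcription factor when membrane sterol falls. Of 18 measured genes 13 were called higher (72.2%) and 0 lower, against 9.95% and 10.1% of all genes, with a median of 0.17. By the test without moderation 8 were higher, as were 846 of all genes, against 1190 with limma. At the head of the pathway HMGCS1, which makes HMG-CoA, had 10.97, 11.07, 11.06 and 11.19 in vehicle, against 10.46, 10.59, 10.50 and 10.51 at baseline, a difference of 0.56 ± 0.05. In its middle the isomerase gene IDI1 rose by 0.41 ± 0.03, although the name of its probe set marks possible cross-hybridisation, and the squalene epoxidase gene SQLE by 0.34 ± 0.03. Of the late steps MSMO1, a sterol demethylase, had 12.25, 12.26, 12.31 and 12.34 in vehicle, against 11.77, 11.84, 11.77 and 11.81 at baseline, and rose by 0.49 ± 0.03 (limma adjusted p = 7.8e-09). DHCR7, which makes cholesterol in the last step, rose by 0.31 ± 0.04. INSIG1, an SREBP target that holds SREBP back when sterols are ample, rose by 0.46 ± 0.04. All of these genes had non-overlapping arrays. The sterol element TCACNCCAC was found, on either strand, before 1 of the 16 members that had a window and before 0 of the 11 called higher, against 1.09% of all genes with a window (0.883% of windows).

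The other lipid lists held calls in both directions. Of 14 fatty acid genes 4 were higher (28.6%, INSIG1 among them) and 2 lower (14.3%), against 9.95% and 10.1% of all genes. The elongase ELOVL2 rose by 0.17 ± 0.04. The carboxylases ACACB and ACACA fell by 0.23 ± 0.04 and 0.11 ± 0.03. Of 9 sterol export genes 1 was higher (11.1%, near the share of all genes) and 2 were lower (22.2%). MYLIP, which degrades the LDL receptor, rose by 0.21 ± 0.04, while NR1H3, the liver X receptor, fell by 0.22 ± 0.05 and its target ABCG1, a sterol exporter, fell by 0.18 ± 0.05. Single arrays decided some of these calls. The limma adjusted p of ACACA was 0.076 without baseline array B, 0.066 without vehicle array B and 0.05 without vehicle array C, and that of ABCG1 was 0.051 without vehicle array D. Without vehicle array B 2 fatty acid genes were higher.

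Genes of the amino acid response, which the factor ATF4 drives, were more often called higher than lower. SLC7A1, the carrier of arginine and lysine, had 10.24, 10.39, 10.34 and 10.43 in vehicle, against 9.49, 9.66, 9.56 and 9.54 at baseline. It was higher by 0.78 ± 0.04, and 4 of its 5 probe sets were called. The pseudokinase TRIB3, an ATF4 target, had 10.87, 10.89, 10.88 and 10.93 in vehicle, against 10.59, 10.55, 10.52 and 10.49 at baseline, a difference of 0.36 ± 0.03. CEBPG, a partner of ATF4, rose by 0.43 ± 0.07 and asparagine synthetase ASNS by 0.17 ± 0.04. STC2, also on the estrogen list, had the smallest p of the members and fell by 0.79 ± 0.03. The glutamine carrier gene SLC38A2 fell by 0.15 ± 0.03 and MTHFD2, of mitochondrial folate metabolism, by 0.15 ± 0.03. ATF4 itself was not called (limma adjusted p = 0.91). Of 34 members 10 were called higher (29.4%) and 4 lower (11.8%, near the share of all genes), with 20 not called and a median of 0.06. In the unfolded protein response 3 of 19 were higher (15.8%) and 4 lower (21.1%), against 9.95% and 10.1% of all genes, including the chaperone HSPA5 (0.17 ± 0.03) and the sensor ATF6 (0.20 ± 0.04), which rose, and HERPUD1 of protein degradation (-0.23 ± 0.04) and XBP1 (-0.14 ± 0.03), which fell. Of 19 heat shock genes 2 rose (10.5%, near the share of all genes) and 4 fell (21.1%), with DNAJB6 lower by the most (-0.42 ± 0.05). HSPB8 rose by 0.30 ± 0.04. Only 1 heat shock gene was called higher without baseline array B, C or D or without any 1 of the 4 vehicle arrays, and 2 were called lower without baseline array B or vehicle array B.

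Many DNA replication genes rose a little, and some mitotic genes fell a little. RRM2, the small subunit of ribonucleotide reductase, had 9.70, 9.76, 9.68 and 9.61 in vehicle, against 8.88, 9.06, 9.23 and 9.06 at baseline, a difference of 0.63 ± 0.06 (limma adjusted p = 1.7e-07). The replicative helicase subunit MCM6 rose by 0.25 ± 0.03 and the transcription factor E2F3 by 0.19 ± 0.04. POLA1, the catalytic subunit of the primase polymerase, fell by 0.22 ± 0.04. Of 42 measured G1/S genes 19 were called higher (45.2%) and 3 lower (7.14%), against 9.95% and 10.1% of all genes, with a median of 0.08. By the test without moderation 9 were higher, as were 846 of all genes, against 1190 with limma. Of 40 G2/M genes 5 were higher (12.5%, near the share of all genes) and 11 lower (27.5%), with a median of -0.05. The G2/M count of lower genes was 6 without baseline array B, 7 without baseline array D and 5 without vehicle array B or D. The mitotic kinesin KIF20A had 7.68, 7.65, 7.67 and 7.68 in vehicle, against 7.92, 7.99, 8.01 and 7.95 at baseline, and fell by 0.30 ± 0.04. TOP2A, the topoisomerase of dividing cells, fell by 0.28 ± 0.04 and HMMR, a spindle protein, by 0.28 ± 0.05. The phosphatase CDC25B went the other way (0.31 ± 0.03).

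Of 15 measured inhibitors of cyclin-dependent kinases and related cyclin and pocket protein genes 3 were called higher (20%) and 4 lower (26.7%), with 8 not called. The lower count was 2 without baseline array D or vehicle array B, C or D. CDKN1A, which encodes p21, had 10.07, 10.05, 10.06 and 10.04 in vehicle, against 9.56, 9.52, 9.49 and 9.45 at baseline, and rose by 0.55 ± 0.04. CDKN1C, which encodes p57, rose by 0.50 ± 0.08 on 4 of its 5 probe sets. CDKN1B, which encodes p27, fell by 0.14 ± 0.03 and the cyclin gene CCNG2 by 0.19 ± 0.03. CCND1, the D-type cyclin that mitogens induce, had 11.29, 11.34, 11.28 and 11.23 in vehicle, against 11.26, 11.29, 11.42 and 11.34 at baseline and was not called (limma adjusted p = 0.69). Among 14 p53 targets 3 rose and 3 fell (21.4% each), against 9.95% and 10.1% of all genes. GDF15, a stress cytokine, rose by 0.79 ± 0.10 on 1 of 2 probe sets, while the p53 ubiquitin ligase MDM2 fell by 0.37 ± 0.06 on 1 of 5. Of 29 ribosome biogenesis genes 10 were higher (34.5%) and 1 lower (3.45%), with a median of 0.09, led by the helicase DDX21 (0.32 ± 0.03).

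Of the genes that FOXO factors drive when insulin signalling is low, more fell than rose. Of 21 measured, with FOXO1, FOXO3 and FOXO4 among them, 9 were lower (42.9%) and 4 higher (19%), with a median of -0.09. Over all genes 10.1% were lower and 9.95% higher. IRS2, an insulin receptor substrate, had 11.61, 11.64, 11.65 and 11.57 in vehicle, against 11.97, 12.03, 11.99 and 11.98 at baseline, and fell by 0.37 ± 0.03 (limma adjusted p = 1.6e-08). GADD45A, a growth arrest gene, had 10.52, 10.53, 10.53 and 10.38 in vehicle, against 10.90, 10.91, 10.89 and 10.99 at baseline, and fell by 0.43 ± 0.04. FOXO3 fell by 0.29 ± 0.04, the receptor ERBB3 by 0.27 ± 0.04 and BCL6 by 0.27 ± 0.05. IRS1, the other substrate, rose by 0.47 ± 0.07, and the coactivator CITED2 rose by 0.74 ± 0.05. PCK1, the gluconeogenic enzyme that insulin represses in liver, was not on this list but was the largest decrease of all. It had 7.05, 6.92, 7.25 and 6.99 in vehicle, against 8.36, 8.58, 8.49 and 8.42 at baseline, which is 2.66-fold lower (-1.41 ± 0.08, limma adjusted p = 2.2e-10). TXNIP, which glucose induces through MondoA, fell by 0.15 ± 0.03 on all 3 probe sets. Of 28 genes of glycolysis and hypoxia 5 rose (17.9%) and 0 fell, which is no larger a called share than the 20% of all genes. They included the phosphofructokinase PFKP (0.67 ± 0.08), EPAS1, which encodes HIF-2 alpha (0.51 ± 0.04), and hexokinase HK2 (0.28 ± 0.04).

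**Figure D2:**
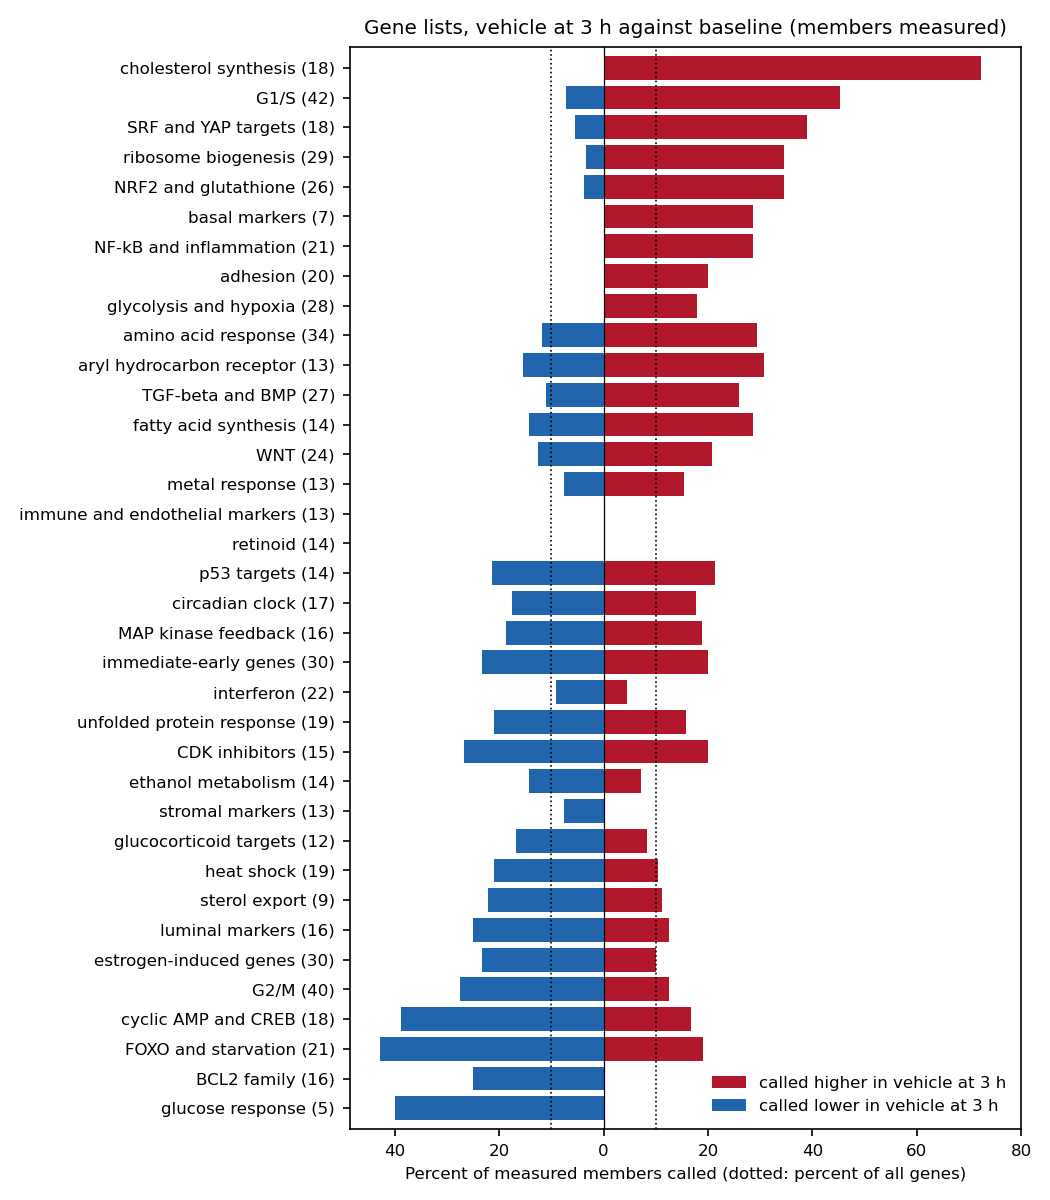
Percent of the measured members of 36 gene lists called higher (red, to the right) or lower (blue, to the left) in vehicle at 3 h against baseline, with the number measured in brackets. Dotted lines mark the shares among all genes, 9.95% higher and 10.1% lower. Cholesterol synthesis (72.2% higher) and G1/S (45.2% higher) are at the top, and several lists have bars past the dotted line on both sides. The lists were chosen with earlier results of these data known.

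Of 17 clock genes 3 rose and 3 fell (17.6% each), against 9.95% and 10.1% of all genes. The repressor CRY1 had 9.47, 9.66, 9.51 and 9.51 in vehicle, against 8.81, 8.95, 8.99 and 8.97 at baseline, and rose by 0.60 ± 0.05. BHLHE41 rose by 0.60 ± 0.07, while its relative BHLHE40 fell by 0.19 ± 0.02. PER1 and NR1D1 had only probe sets that name several genes and were not measured. PER2 (-0.05 ± 0.04) and DBP (-0.06 ± 0.05) were not called. Of 12 glucocorticoid genes, NR3C1 among them, 1 rose (8.33%) and 2 fell (16.7%), together near the called share of all genes. FKBP5 rose (0.32 ± 0.05), and TSC22D3 (-0.35 ± 0.04) and DUSP1 fell. Of 21 NF-kB and inflammatory genes 6 rose (28.6%) and 0 fell. The chemokine gene CCL20 had 6.35, 6.39, 6.50 and 6.13 in vehicle, against 5.73, 5.76, 5.57 and 5.70 at baseline, where its mean was dim. It rose by 0.65 ± 0.11. CXCL8, another chemokine gene, was dim in both groups and rose by 0.54 ± 0.12. Of 24 WNT genes 5 rose (20.8%) and 3 fell (12.5%, near the share of all genes). WNT5A, dim in both groups, had 5.05, 5.32, 5.09 and 5.44 in vehicle, against 4.24, 4.35, 4.42 and 4.26 at baseline, and rose by 0.91 ± 0.09. The receptor FZD1 rose by 0.36 ± 0.03. Of 20 adhesion genes 4 rose (20%), the largest being the tight junction gene CLDN7 (0.32 ± 0.05), and of 16 BCL2 family genes 4 fell (25%) and 0 rose. BIK, a killer protein of that family, fell by 0.40 ± 0.04 and BCL2 by 0.25 ± 0.03. Without baseline array C or vehicle array D 2 of the family were lower.

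Genes that metabolise ethanol were called about as often as all genes. Of 14 measured 1 was higher, ALDH1B1 (0.25 ± 0.06), and 2 were lower, ALDH3A2 (-0.18 ± 0.03) and catalase, CAT (-0.08 ± 0.03), shares of 7.14% and 14.3%. CAT was not called without baseline array B or D or without vehicle array A or D, with limma adjusted p-values of 0.063 to 0.1, and as a mean of all its probe sets it was at 0.012. ALDH2, the main acetaldehyde dehydrogenase of mitochondria, had 12.69, 12.69, 12.67 and 12.66 in vehicle, against 12.67, 12.71, 12.71 and 12.70 at baseline. It was not called (-0.02 ± 0.02, limma adjusted p = 0.67). ADH5 (-0.07 ± 0.03, limma adjusted p = 0.15) was also not called, although its 4 vehicle arrays lay just below the baseline arrays. Of 14 retinoid genes 0 were called. Of 22 interferon genes 1 rose (4.55%) and 2 fell (9.09%), a smaller called share than the 20% of all genes. The exonuclease ISG20 rose (0.64 ± 0.07). OAS2 (-0.34 ± 0.10) and MX2 (-0.21 ± 0.07) fell. Neither was called without baseline array C or D or vehicle array B, and MX2 was not called without baseline array A or B or vehicle array D either (limma adjusted p-values of 0.051 to 0.16). Of 13 metal response genes 2 rose (15.4%), HMOX1 and the iron carrier SLC11A2 (0.14 ± 0.03), and 1 fell (7.69%). The called share of 23.1% was near the 20% of all genes. As a mean of all probe sets SLC11A2 was at -0.0096. The gene that fell was the zinc exporter SLC30A1, which zinc induces. It had 11.28, 11.38, 11.34 and 11.36 in vehicle, against 12.01, 12.13, 12.16 and 11.99 at baseline (-0.73 ± 0.04).

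More estrogen-induced genes were called lower than higher in vehicle at 3 h, and most were not called. Of 30 measured 7 were called lower (23.3%) and 3 higher (10%), against 10.1% and 9.95% of all genes. The median was -0.05, and without vehicle array C 5 were higher. STC2, stanniocalcin 2, had 9.95, 10.07, 9.98 and 10.00 in vehicle, against 10.76, 10.80, 10.79 and 10.78 at baseline, and fell by 0.79 ± 0.03 on both probe sets (limma adjusted p = 1.6e-11). The ubiquitin ligase SIAH2 fell by 0.54 ± 0.05, MYB by 0.26 ± 0.03 and the corepressor NRIP1 by 0.25 ± 0.03. GREB1 had 10.24, 10.14, 10.01 and 9.99 in vehicle, against 10.27, 10.64, 10.52 and 10.50 at baseline, and fell by 0.39 ± 0.07 with its arrays just apart, on 1 of 3 probe sets. RAB31, a small GTPase, had 11.05, 11.18, 11.05 and 11.24 in vehicle, against 10.44, 10.63, 10.62 and 10.60 at baseline, and rose by 0.56 ± 0.05. TFF1 (0.02 ± 0.02) and the dim PGR (-0.05 ± 0.14) were not called, and the sign of PGR turned without baseline array C or vehicle array D. ESR1, the receptor gene, had 13.30, 13.28, 13.33 and 13.26 in vehicle, against 13.52, 13.54, 13.55 and 13.54 at baseline, and fell by 0.25 ± 0.03 on 5 of 9 probe sets.

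Of 16 luminal markers 4 were lower (25%) and 2 higher (12.5%), against 10.1% and 9.95% of all genes. Their summed level was 17.01 to 17.03 in vehicle and 17.02 to 17.03 at baseline on the log2 scale. ELF3, an epithelial transcription factor, fell by 0.38 ± 0.04 and FOXA1, a pioneer factor of the estrogen receptor, rose by 0.25 ± 0.06. The higher count was 1 without baseline array A, B or D or vehicle array B, C or D. Of 7 basal markers 2 rose (28.6%), OXTR (0.56 ± 0.10) from a dim baseline mean and ACTA2 (0.34 ± 0.06), dim in both groups. The 7 summed to 8.71 to 8.82 in vehicle and 8.68 to 8.75 at baseline, with 4 dim in vehicle and 5 at baseline. The keratin KRT5 was dim in both groups and not called. Stromal markers summed to 11.35 to 11.40 in vehicle and 11.37 to 11.46 at baseline, with 1 of 13 lower (7.69%), the dim LUM. LUM was not called without baseline array A, B or C or without vehicle array A, B or C (limma adjusted p-values of 0.05 to 0.13). Immune and endothelial markers summed to 9.26 to 9.37 in vehicle and 9.35 to 9.37 at baseline, with 0 of 13 called.

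**Figure D3:**
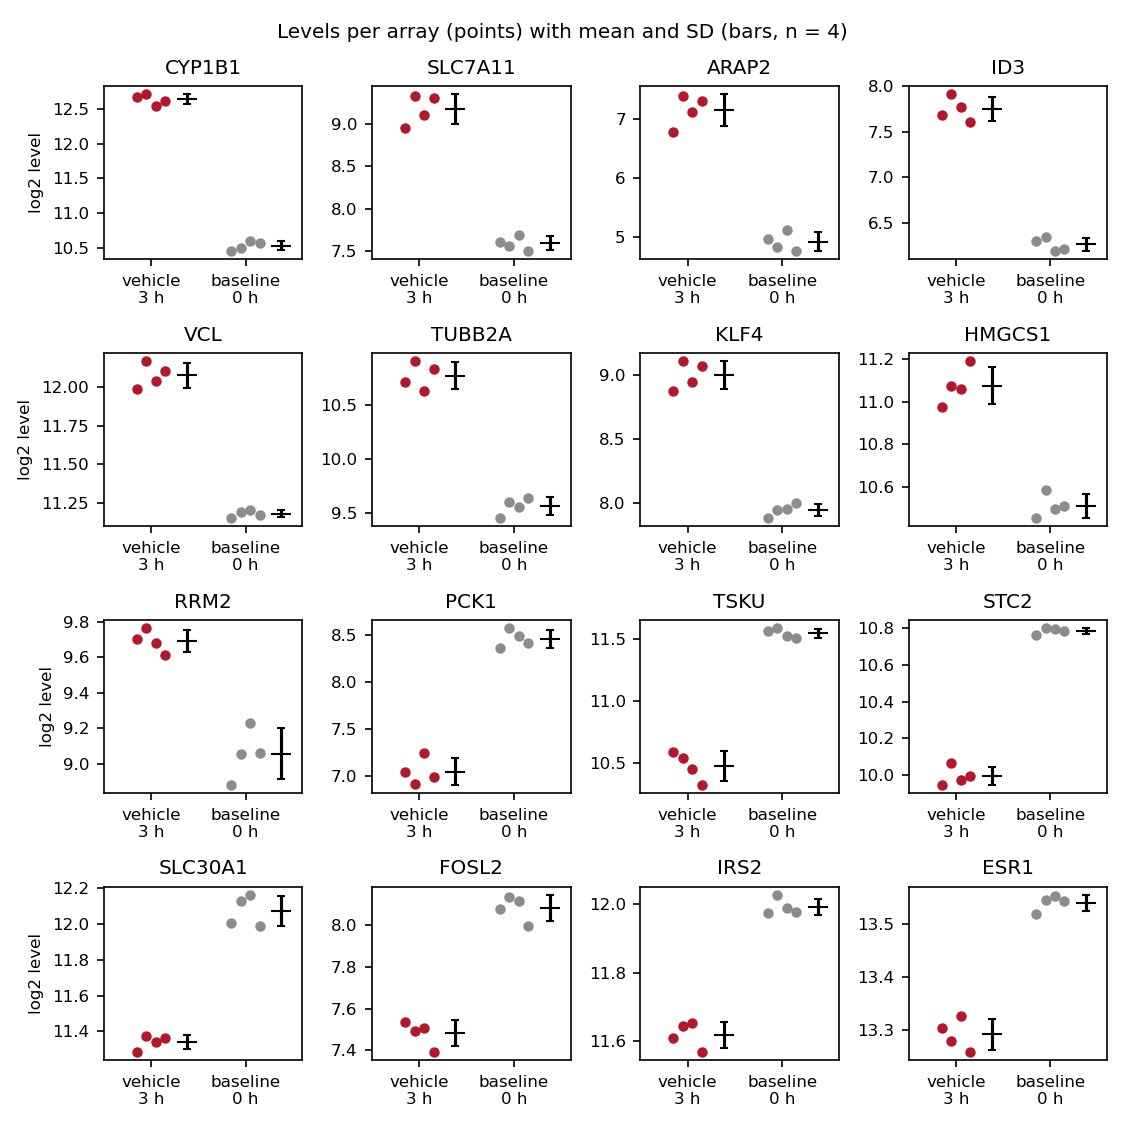
Log2 level of 16 genes on each array, vehicle at 3 h (red) left of baseline at 0 h (grey), with the mean and SD of 4 arrays as bars. In each of the 16 genes drawn the 4 red points lie on one side of the 4 grey points, as in 25.4% of all genes. The genes were picked from those named, many of them for non-overlapping arrays, so their separation is not a test. The vertical scales differ between panels and do not start at 0.

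The remaining large increases belong to varied families. ARAP2, a GTPase-activating protein for Arf that binds phosphoinositides, had 6.77, 7.39, 7.12 and 7.31 in vehicle, against 4.97, 4.82, 5.12 and 4.76 at baseline. Its difference of 2.23 ± 0.14 was the largest of all and started from a dim baseline, which makes its size less certain. PHLDA2, an imprinted growth regulator of placenta, rose by 1.49 ± 0.08 on 1 of 2 probe sets. TNFRSF12A, the receptor for TWEAK, had 10.67, 10.87, 10.70 and 10.95 in vehicle, against 9.54, 9.51, 9.51 and 9.53 at baseline, a difference of 1.28 ± 0.08. CEMIP, which takes part in hyaluronan breakdown, rose by 1.42 ± 0.10, the cell surface protein gene FLRT3 by 1.25 ± 0.07, ZNF365 by 1.22 ± 0.11 and CAMTA1, a calmodulin-binding transcription factor, by 1.13 ± 0.13, all 4 with dim baseline means. Among the 15 largest increases limma's adjusted p-values ran from 1.1e-17 to 2.6e-06.

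Decreases were smaller. After PCK1 came TSKU, a secreted protein with leucine-rich repeats, with 10.59, 10.54, 10.45 and 10.32 in vehicle, against 11.56, 11.59, 11.52 and 11.51 at baseline (-1.07 ± 0.05). CX3CR1, the fractalkine receptor, fell by 0.81 ± 0.10, NUDT6 by 0.77 ± 0.06 and TNFSF10, the death ligand TRAIL, by 0.74 ± 0.09 on all 3 of its probe sets. The name of the TNFSF10 probe set used here carries the same mark of possible cross-hybridisation as that of IDI1. The actin-binding protein gene AVIL fell by 0.72 ± 0.08, PSD3 by 0.70 ± 0.04 and NDP, which encodes norrin and was dim in both groups, by 0.70 ± 0.13. MICB, a ligand of the NKG2D receptor, had 8.77, 8.75, 8.83 and 8.64 in vehicle, against 9.27, 9.50, 9.50 and 9.49 at baseline, and fell by 0.70 ± 0.05. The last 4 of the 15 were the RNA cleavage factor gene CSTF3 (-0.69 ± 0.06), the tryptophan dioxygenase gene TDO2 (-0.68 ± 0.07), the polarity gene PARD6B (-0.66 ± 0.11) and the peptide carrier gene SLC15A2 (-0.65 ± 0.07).

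**Figure D4:**
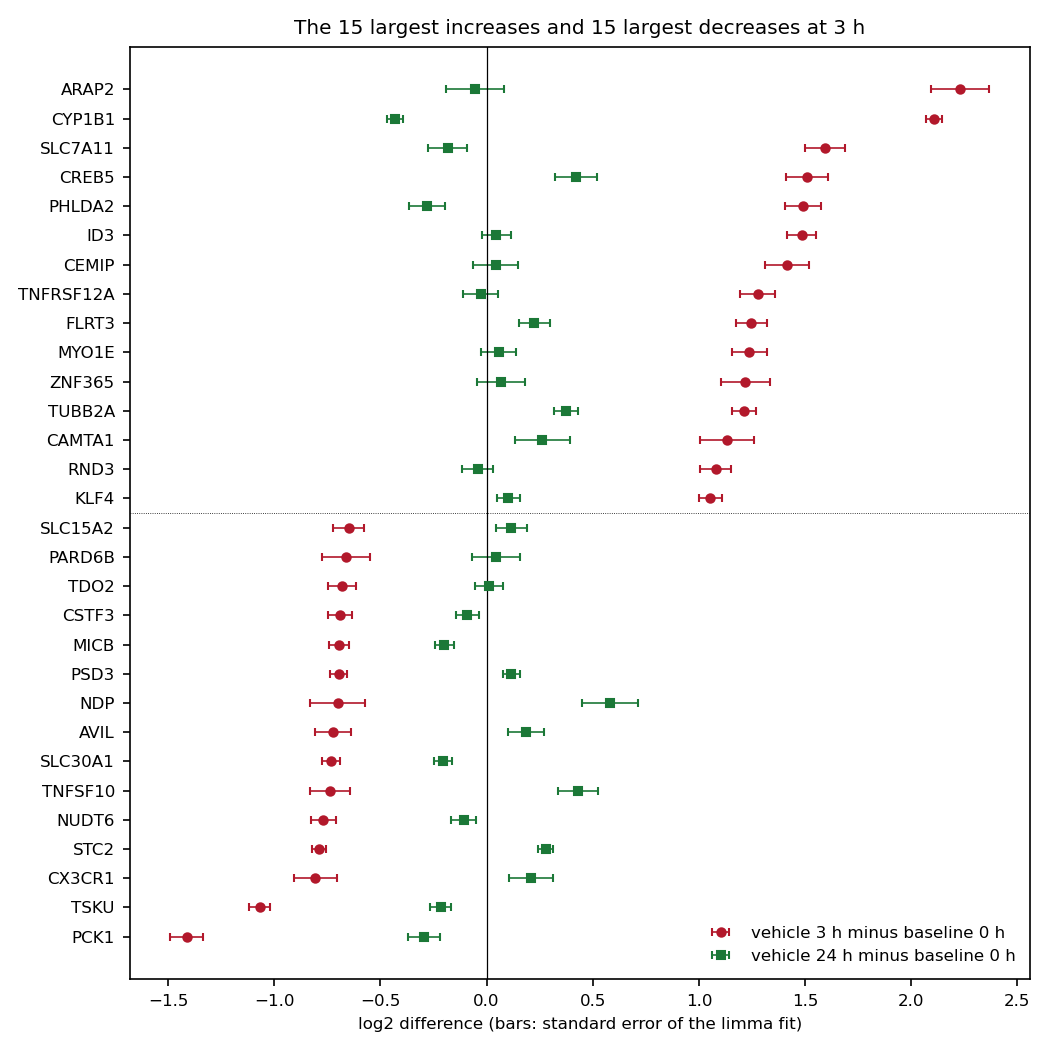
The 15 largest increases (top) and 15 largest decreases (bottom) at 3 h, as log2 differences from baseline with the standard error of the limma fit. Red circles are vehicle at 3 h and green squares vehicle at 24 h, both against the same baseline arrays. At 3 h the increases run from 1.05 to 2.23 and the decreases from -1.41 to -0.65, while at 24 h the same genes lie between -0.43 and 0.58.

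The 30 largest changes were smaller at 24 h of vehicle than at 3 h. The 24 h and 3 h differences share the baseline arrays, so they are given side by side only. The 15 increases lay between -0.43 and 0.42 against baseline at 24 h, with a median of 0.05, against 1.05 to 2.23 with a median of 1.28 at 3 h. The 15 decreases lay between -0.29 and 0.58 at 24 h, with a median of 0.04, against -1.41 to -0.65 with a median of -0.72 at 3 h. At 24 h the arrays of the 15 increases lay above baseline for 3, below it for 2 and overlapped it for 10. Those of the 15 decreases lay above baseline for 4, below it for 3 and overlapped it for 8. Over all genes 19.8% had vehicle arrays at 24 h that did not overlap baseline. The genes were chosen on the 3 h vehicle arrays, so the change from 3 h to 24 h is not tested.

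Some genes passed baseline or kept their level. CYP1B1 was at 10.53 ± 0.07 at baseline, 12.64 ± 0.07 after 3 h of vehicle and 10.10 ± 0.05 after 24 h (SD, n = 4 each), so its 24 h arrays lay below baseline (-0.43 ± 0.04, limma adjusted p = 3e-07). RAB31 was at 10.57 ± 0.09, 11.13 ± 0.10 and 9.89 ± 0.08 in the same order, and FHL2 at 10.54 ± 0.02, 11.01 ± 0.08 and 10.24 ± 0.07. SMAD3 was at 9.13 ± 0.04, 9.54 ± 0.12 and 9.49 ± 0.08, still above baseline at 24 h (0.36 ± 0.06, limma adjusted p = 0.00045). RRM2 went on rising, at 9.06 ± 0.14, 9.69 ± 0.06 and 10.27 ± 0.08, a 24 h difference from baseline of 1.21 ± 0.06. KIF20A was at 7.97 ± 0.04, 7.67 ± 0.02 and 8.51 ± 0.03, and GREB1 went on falling, at 10.48 ± 0.15, 10.09 ± 0.12 and 9.48 ± 0.06.

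Estradiol at 3 h is compared with this vehicle group, so the vehicle's own movement bears on such values. E2 arrays at 3 h lay above the baseline arrays for 10 of the 15 largest increases and below them for 3. For the 15 largest decreases they lay above baseline for 6 and below it for 9. Over all genes the E2 arrays lay above baseline for 15.6% and below it for 19.5%. The genes of the largest changes were chosen for vehicle arrays that lie apart from these same baseline arrays. Their counts are therefore not independent of that choice and were not tested. KLF4 was at 9.13 ± 0.04 with E2 and 9.00 ± 0.11 with vehicle, against 7.95 ± 0.05 at baseline. RND3 was at 8.47 ± 0.17 with E2 and 11.31 ± 0.15 with vehicle, against 10.23 ± 0.04 at baseline, so its E2 and vehicle arrays lay on opposite sides of baseline. PCK1 was at 9.24 ± 0.15 with E2 and 7.05 ± 0.14 with vehicle, against 8.46 ± 0.09 at baseline. STC2 was at 11.03 ± 0.07 with E2 and 10.00 ± 0.05 with vehicle, against 10.78 ± 0.02 at baseline, so that the distance from E2 to vehicle exceeded that from E2 to baseline. SLC7A11 was at 7.75 ± 0.13 with E2 and 9.18 ± 0.18 with vehicle, against 7.59 ± 0.08 at baseline, and the E2 arrays overlapped baseline.

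**Figure D5:**
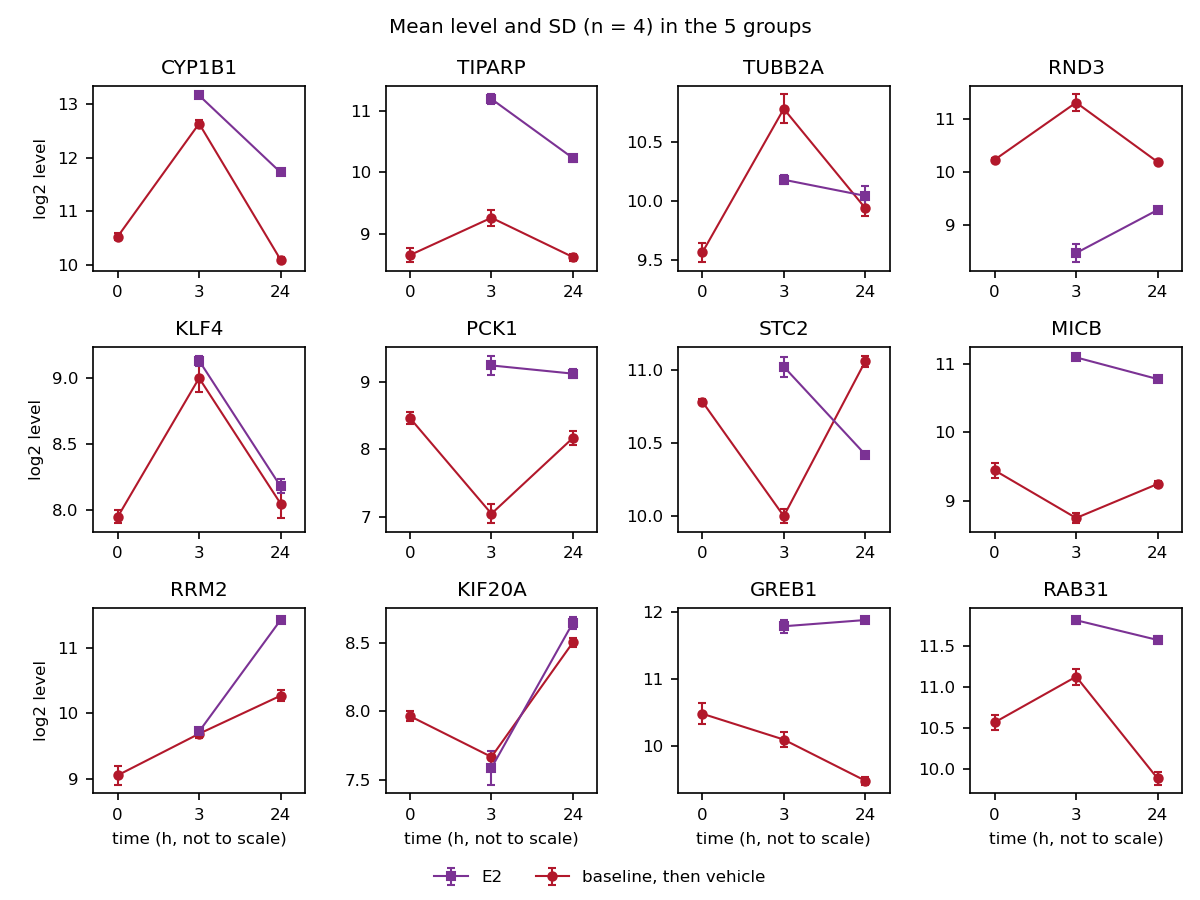
Mean log2 level and SD (n = 4) of 12 genes at 0, 3 and 24 h, with E2 as purple squares and baseline followed by vehicle as red circles. The time axis is not to scale. CYP1B1, TUBB2A, RND3 and KLF4 peak in vehicle at 3 h, PCK1, STC2 and MICB are lowest there, RRM2 goes on rising and GREB1 goes on falling.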

How the data were processed

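Levels came from Affymetrix expression arrays. Per the submitters' processing notes the authors deposited log2 values made with RMA in affy, with versions not given in the sources used here. RMA makes array distributions alike, so a shift shared by most genes would not be seen. Of 22277 probe sets 62 controls were left out, 19064 had 1 symbol, 1043 several and 2108 none. The probe set of highest mean over the 20 arrays stood for each of 11963 genes. limma 3.58.1 (R 4.3.3) fitted all 5 groups at once, with eBayes, two-sided tests and Benjamini-Hochberg adjustment over all genes, after a test on simulated data. Each p-value sets a group difference against the spread of the gene between arrays, pooled over the 5 groups and moderated across genes. The number of arrays limits precision.

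Named were the 15 largest called increases and decreases without overlap, up to 4 members of each list by p and a set of markers. A further 23 genes were named after their values were seen: CYP1A2, GCLC, OSGIN1, ACTN1, TEAD1, AMOTL2, TGFBR2, BAMBI, SKIL, JUN, JUND, TRIB1, DHCR7, MYB, IRS1, MDM2, CEBPG, ASNS, ERBB3, BCL6, ATF4, SLC38A2 and MTHFD2. Members and lists were chosen with earlier results of these data known. Promoters came from RefSeq (GRCh38.p14). Alternatives changed normalization, filter, probe set rule, test and arrays.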

Additional observations from a re-analysis of the deposited data

Results flagged for a closer look

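Among 306 sets of 4 arrays of a named gene, 20 held an array far from the other 3 of its group, and chance gives such an array in about 1 of 20 sets. Vehicle array D stood apart for 6 genes. It was above the other vehicle arrays for CAMTA1 at 6.57 (6.09 to 6.15 on the others) and IER3 at 12.86 (12.79 to 12.80), and below them for TNFSF10 at 8.80 (9.08 to 9.14), HERPUD1 at 11.25 (11.38 to 11.40), GADD45A at 10.38 (10.52 to 10.53) and ADH5 at 10.73 (10.82 to 10.83). Vehicle array B was high for OSGIN1 at 7.05 (6.91 to 6.92) and low for BAMBI at 8.29 (8.46 to 8.47), and vehicle array A was low for ACTA2 at 5.44 (5.61 to 5.63). Baseline array A was low for MICB at 9.27 (9.49 to 9.50), XBP1 at 12.62 (12.67 on the others), RAB31 at 10.44 (10.60 to 10.63), NRIP1 at 11.05 (11.13 to 11.14) and TRIB1 at 8.85 (8.89 on the others), and high for BIK at 12.05 (11.98 to 11.99) and CYP1A2 at 10.37 (10.26 on the others). Baseline array B was high for IDI1 at 12.16 (12.08 to 12.09) and FZD1 at 9.66 (9.58 to 9.60), and baseline array D was low for ISG20 at 8.20 (8.33 to 8.35) and OSGIN1 at 7.004 (7.20 to 7.23).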

How the results depend on the processing

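The count of called genes was 2393 and kept within 1.5 times of that under the alternatives tried, except at 2 stricter thresholds. At an adjusted p of 0.01 it was 1573, with 709 lower, and against a fold of 1.2 by limma's treat it was 190, with 141 higher and 49 lower. Without 1 array at a time it was 1979 to 2200. Higher and lower calls numbered 1190 and 1203, 1124 and 1329 with arrays centred on their median, 1184 and 1370 after a repeated quantile normalization, and 1267 and 1196 with level trends removed. With the replicate letter as a block (replicate block) 2332 genes were called. Deviations of same-letter arrays correlated at -0.12 to 0.03, within the -0.13 to 0.13 of pairs of any letter. Of the 4 vehicle arrays 0 were closest to their own letter. With 4 pairs this cannot show whether a letter marks a shared culture or batch. Members called higher numbered 8 in the cholesterol list and 9 in the G1/S list by the test without moderation, against 13 and 19 with limma. Over all genes that test called 846 higher, against 1190 with limma. As a mean of its probe sets SLC11A2 was at -0.0096 and CAT at 0.012. PGR ranged from -0.1451 to 0.0405 without single arrays. The causes were not tested. Genes at dim levels carry the least certain sizes.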
